A study of Mus musculus with 4 samples.

Results

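Droplet barcodes rich in mitochondrial RNA were examined in a 10x multiome experiment, in which RNA molecules and transposition events in open chromatin are counted for the same barcode. These mitochondria-rich barcodes were selected on the RNA counts themselves, as those with 500 to 25000 UMIs (counted RNA molecules), at least 300 genes and at least 30% of UMIs from the 13 mitochondrially encoded genes. They numbered 1450 of 10925 deposited barcodes in the library labelled CKO and 3998 of 13569 in the control library, or 5448 of 24494 in all. They were compared, within each library, with mitochondria-poor barcodes, which met the same UMI and gene limits with a mitochondrial share under 20% (5923 in the library labelled CKO and 4173 in the control library). The CKO genotype was SftpcCreERT2; Rosa26mTmG; IPF/F, and the control genotype was SftpcCreERT2; Rosa26mTmG. All mice were male, had bleomycin lung injury 8 days earlier, and carried a Cre that tamoxifen switches on, driven from Sftpc, which encodes surfactant protein C in alveolar type 2 (AT2) cells, with a reporter that turns recombined cells green. The floxed gene encodes IP, the prostacyclin receptor Ptgir. Green cells were sorted, lysed in a mild detergent and washed before nuclei were loaded, and the labels call the RNA nuclear. Each genotype is 1 library, and the sources used here give neither the number and age of the animals nor the tamoxifen schedule. Replicate error therefore could not be measured, and no comparison was tested. Intervals are at the 95% level and reflect counting error alone, except those of peak count ratios, which are explained beside them.

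Mitochondrial mRNAs are transcribed from the small circular genome inside mitochondria, which lie in the cytoplasm, so a nuclear preparation carries them only with attached or free cytoplasmic material. The mRNAs of ribosomal proteins, glycolytic enzymes and secreted proteins are spliced, exported and held on cytoplasmic ribosomes. Long noncoding RNAs such as Malat1 and Neat1, transcripts with retained introns and newly made transcripts of long genes are kept in the nucleus. AT2 cells carry many mitochondria and make surfactant proteins through the secretory pathway, so their cytoplasm has a distinctive RNA content.

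The mitochondria-rich class made up 13.3% of deposited barcodes in the library labelled CKO (12.6 to 13.9, exact Clopper-Pearson interval), against 29.5% of control barcodes (28.7 to 30.2). Of the barcodes within the UMI and gene limits, it made up 15.1% (14.4 to 15.9) and 35.2% (34.4 to 36.1). A further 562 barcodes of the library labelled CKO had at least 30% mitochondrial UMIs but failed a limit, 344 for fewer than 300 genes alone and 218 for fewer than 500 UMIs. Of control barcodes 746 failed, 597 for genes alone, 141 for low UMIs and 8 for more than 25000 UMIs. The median mitochondrial share was 37.2% in mitochondria-rich and 10.6% in mitochondria-poor barcodes of the library labelled CKO, and 38.1% and 12.4% in the control library, a gap that the rule itself sets. At least 40% was reached by 530 and at least 50% by 180 of the 1450 mitochondria-rich barcodes of the library labelled CKO, and by 1628 and 537 of the 3998 in the control library. No gap separated the class from the rest. Within 1 percentage point above the limit lay 114 barcodes of the library labelled CKO, with 3.10% ribosomal protein RNA and 3.01% Malat1 among nuclear-encoded UMIs, and within 1 point below it lay 140, with 2.67% and 2.75%. The 275 control barcodes just inside the limit had 1.43% and 3.82%, and the 314 just outside had 1.46% and 3.64%. Between the libraries 193 barcode strings were shared, 22 of them mitochondria-rich in the library labelled CKO and 56 in the control library, and with these left out the class shares, the ratios of ribosomal protein, surfactant, oxidative phosphorylation, long noncoding and speckle or retained RNA and the peak count ratios stayed within their intervals. Other values were not recomputed without them.

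**Figure D1:**
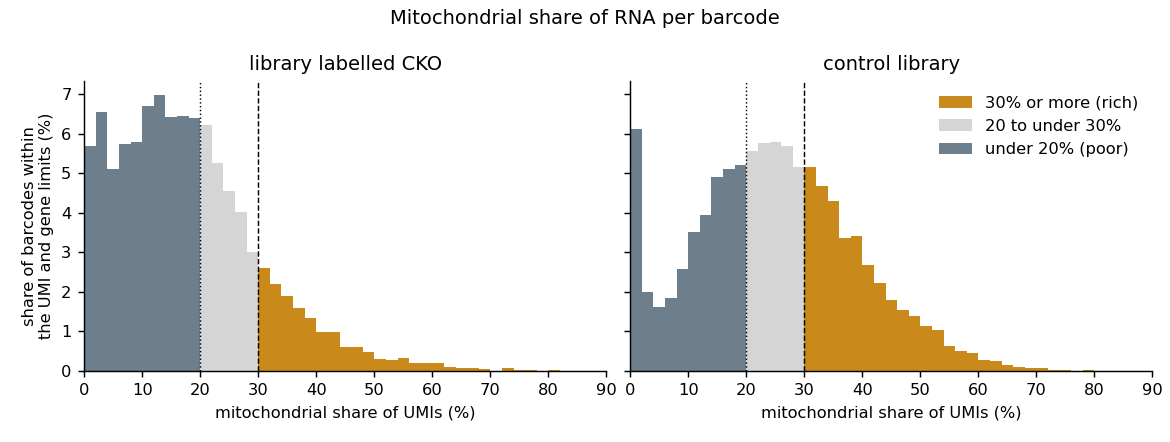
Distribution of the mitochondrial share of UMIs over barcodes within the UMI and gene limits, in steps of 2 percentage points, with the 30% (dashed) and 20% (dotted) limits and the y axis as a share of such barcodes in percent. Both distributions run through the 30% limit without a break, and more of the control library (35.2%, against 15.1% in the library labelled CKO) lies at or above it.

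Depth differed between the classes in its makeup more than in its total. In the library labelled CKO mitochondria-rich barcodes had a median of 2289 UMIs, of which 1342.5 were nuclear-encoded, against 2527 and 2254 in mitochondria-poor ones. The control medians were 3417.5 and 2028.5, against 2304 and 2089. Median mitochondrial UMIs were 905.5 against 238 in the library labelled CKO and 1376 against 203 in the control library. A higher mitochondrial share thus went with 3.80 and 6.78 times the mitochondrial UMIs, while nuclear-encoded UMIs were 0.596 and 0.971 times those of the mitochondria-poor class. After every barcode was thinned to 300 nuclear-encoded UMIs, mitochondria-rich barcodes held a median of 237 genes against 246 in the library labelled CKO, and 191 against 213 in the control library (no barcode was too shallow to thin). Without thinning the medians were 883.5 against 1344, and 953 against 1083. Ptgir, the target of the deletion, had 0 UMIs in mitochondria-rich barcodes of both libraries, where 3 counts would be 1.26 CPM (UMIs of a gene scaled to a fixed total of nuclear-encoded UMIs) in the library labelled CKO and 0.295 CPM in the control library. Among deposited barcodes as a whole its count was 10 UMIs in the library labelled CKO and 2 in the control library. Which exon the deletion takes is not in the labels, so the counts do not check the genotype, and the name "library labelled CKO" is used throughout.

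The mitochondrial RNA itself, which chose the members, was made of the same transcripts in both classes. Subunits of ATP synthase and cytochrome c oxidase led. Of mitochondrial UMIs in the library labelled CKO, mt-Atp6 (ATP synthase) gave 20.9% in mitochondria-rich and 20.8% in mitochondria-poor barcodes, mt-Co3 17.6% and 17.5%, mt-Co2 15.8% and 16.2%, and mt-Co1 9.38% and 9.40% (cytochrome c oxidase). Among control barcodes mt-Co3 gave 19.5% and 19.0%, mt-Atp6 19.0% and 18.7%, mt-Co2 16.1% and 16.0%, and mt-Co1 7.13% and 7.64%. The cytochrome b gene mt-Cytb gave 7.81% and 7.57% in the library labelled CKO and 9.004% and 9.08% in the control library. The complex I genes mt-Nd1, mt-Nd2 and mt-Nd4 each gave between 6.07% and 8.09% in every class. The smallest shares were those of mt-Nd3 (4.41% and 4.37% in the library labelled CKO, 2.64% and 2.51% in the control library), mt-Nd5 (1.99% and 2.16%, then 2.31% and 2.59%), mt-Atp8 (0.845% and 1.01%, then 0.276% and 0.312%), mt-Nd4l (0.620% and 0.709%, then 0.619% and 0.727%) and mt-Nd6 (0.115% and 0.171%, then 0.0820% and 0.130%). The last of these, mt-Nd6, is the gene encoded on the other strand, and whether the counting used strand is not given in the sources used here. The 2 ribosomal RNAs of the mitochondrial genome are not among the 13 genes counted.

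Among nuclear-encoded RNA, transcripts of cytosolic ribosomal proteins took a larger share in mitochondria-rich barcodes of both libraries. Summed over 79 genes they made up 3.39% of nuclear-encoded UMIs in mitochondria-rich and 1.96% in mitochondria-poor barcodes of the library labelled CKO, a log2 ratio of 0.79 (interval 0.78 to 0.80). In the control library they made up 1.94% and 0.750%, a log2 ratio of 1.37 (1.36 to 1.38). All 79 genes had a ratio above 0 in both libraries, with a range of 0.44 to 1.15 in the library labelled CKO and 1.06 to 1.61 in the control library. Of all genes with at least 200 UMIs, 40.2% of 9491 had a ratio above 0 in the library labelled CKO and 29.7% of 8380 in the control library, with a median gene at -0.096 and -0.25. Set against that median gene every ratio is larger by those amounts, so a gene or list between -0.096 and 0 in the library labelled CKO, or between -0.25 and 0 in the control library, is above 0 on that scale. The ribosomal protein genes at least 2-fold higher numbered 2 of 79 in the library labelled CKO, where 1.00% of genes passed that fold, and 79 of 79 in the control library, where 5.69% did. These shares of all genes, and those above 0, are also the background for the counts of the following lists. Members of this and the following lists were ranked by the mean of both libraries' ratios, so another gene can be the extreme in 1 library. Rpl27 (1.03 and 1.44) and Rpl21 (0.86 and 1.61) were highest by that mean, and Rpl4 (0.44 and 1.06) and Rpl3 (0.60 and 1.11) lowest. The difference was spread over barcodes, since the middle 50% of barcodes ran from 2.42% to 4.50% ribosomal protein RNA in mitochondria-rich and from 1.18% to 2.54% in mitochondria-poor barcodes of the library labelled CKO. Among control barcodes they ran from 1.23% to 2.56% and from 0.359% to 0.993%, so there the middle ranges did not overlap.

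Nuclear genes for oxidative phosphorylation, whose proteins are imported into mitochondria, followed the same direction. The 75 genes summed to 0.562% in mitochondria-rich and 0.343% in mitochondria-poor barcodes of the library labelled CKO (log2 ratio 0.71, 0.69 to 0.74) and to 0.452% and 0.194% in the control library (1.22, 1.20 to 1.24), with 71 and 72 of 75 above 0. The small subunits Uqcr11 of complex III (1.09 and 1.65) and Ndufa2 of complex I (1.04 and 1.60) were highest by the mean of both libraries. The complex I subunits Ndufs4 (-0.24 and -0.36) and Ndufs1 (-0.01 and -0.21) were lowest, where the values of Ndufs4 lay below the median gene and those of Ndufs1 above it. Mitochondrial ribosomal proteins differed less, at log2 ratios of 0.30 (0.25 to 0.35) in the library labelled CKO and 0.48 (0.44 to 0.52) in the control library, with 39 of 53 and 34 of 40 measured genes above 0. Genes for copying and transcribing the mitochondrial genome had no such excess. They summed to -0.085 (-0.18 to 0.0060) and -0.13 (-0.19 to -0.072), with 2 of 12 measured genes above 0 in each library, and to 0.011 and 0.12 when set against the median gene. The RNA-binding protein Slirp (0.95 and 1.10) and the elongation factor Tufm (0.53 and 1.36) led that list, and the transcription factor Tfb2m (-0.55 and -0.74) and the termination factor Mterf1a (-1.03 and -0.31, from 91 and 68 UMIs) closed it.

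Cytosolic housekeeping RNA, a list of translation factors, actin regulators, glycolytic enzymes and ferritin, summed to 1.35% in mitochondria-rich and 0.852% in mitochondria-poor barcodes of the library labelled CKO (log2 ratio 0.67, 0.65 to 0.68) and to 0.848% and 0.445% in the control library (0.93, 0.91 to 0.94). Above 0 were 30 of 30 and 28 of 29 measured genes. Tmsb4x, which binds actin monomers, was at 2113 CPM against 1042 CPM in the library labelled CKO (1.02) and 1453 against 530 CPM in the control library (1.46). The ferritin heavy chain gene Fth1 was at 1506 against 799 CPM (0.91) and 756 against 248 CPM (1.61). At the other end stood the G protein gene Gnas (0.17 and 0.024). RNA of the endoplasmic reticulum secretory machinery was in between, at 0.43 (0.39 to 0.47) and 0.53 (0.50 to 0.56), with 28 of 29 and 29 of 29 above 0. The translocon subunits Sec61g (1.10 and 1.09) and Sec61b (0.76 and 1.57) were highest, and the signal peptidase subunit Spcs3 (-0.083 and 0.33) and the chaperone Canx (0.14 and 0.11) lowest.

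Surfactant and other secretory products of AT2 cells made up 2.35% of nuclear-encoded UMIs in mitochondria-rich and 1.36% in mitochondria-poor barcodes of the library labelled CKO, a log2 ratio of 0.79 (0.78 to 0.80). In the control library they made up 2.97% and 1.26% (1.24, 1.24 to 1.25). All 20 genes were above 0 in both libraries, and 8 and 13 of 20 were at least 2-fold higher. Of all genes 1.00% and 5.69% passed that fold, and 40.2% and 29.7% were above 0. Sftpb, which encodes the surfactant protein needed for the surface film, was at 4997 CPM against 2997 CPM in the library labelled CKO (0.74, 0.71 to 0.77) and 5457 against 2383 CPM in the control library (1.20, 1.18 to 1.22). Lyz2, the lysozyme gene of AT2 cells and macrophages, was at 2465 against 1020 CPM (1.27) and 4562 against 1300 CPM (1.81). The lipid-binding protein gene Fabp5 (1.24 and 1.85) and the second lysozyme gene Lyz1 (1.28 and 1.80) were the highest of the list. The protease gene Ctsh (0.25 and 0.33) and the lamellar body membrane gene Lamp3 (0.25 and 0.31) were the lowest. Lyz1 and Lyz2 are near copies of each other, so reads could be split between them. Sftpc, the gene that carries the Cre, had low counts, at 125 against 91.4 CPM in the library labelled CKO (0.45, 0.27 to 0.63) and 107 against 74.5 CPM in the control library (0.52, 0.39 to 0.64).

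Summed nuclear-retained long noncoding RNA had the opposite direction. In the library labelled CKO this rested on Malat1, while in the control library the rest of the list was lower as well. Above 0 were 4 of 9 measured genes in the library labelled CKO and 2 of 10 in the control library. Of all genes 40.2% and 29.7% were above 0. Malat1, a noncoding RNA of nuclear speckles, was at 24700 CPM in mitochondria-rich and 35532 CPM in mitochondria-poor barcodes of the library labelled CKO (log2 ratio -0.52, -0.54 to -0.51) and at 33428 and 48777 CPM in the control library (-0.55, -0.55 to -0.54). As a share of nuclear-encoded UMIs, its ratio thus was nearly the same size in both libraries, while the ribosomal protein ratio was not. Against the median gene the Malat1 ratio was -0.43 and -0.29, so its near equality depends on the scale. The list of nuclear long noncoding RNAs summed to -0.42 (-0.43 to -0.41) and -0.51 (-0.52 to -0.51). With Malat1 left out of the list alone, the sum was -0.0012 (-0.024 to 0.022) in the library labelled CKO and -0.30 (-0.31 to -0.28) in the control library. With Malat1 and ribosomal RNA-like genes left out of the total as well, it was 0.050 and -0.15. Other members with lower values were Airn (-0.50 and -0.91) and Pvt1 (-0.52 and -1.08), both made from long transcription units. Gm26917 (0.43 and 0.40, from 5308 and 17423 UMIs in mitochondria-rich barcodes) and Meg3 (0.16 and 0.055) had the highest. The list was not recomputed without Gm26917. Neat1, the backbone of paraspeckles, was at 3859 against 4096 CPM in the library labelled CKO (-0.086) and 2533 against 3546 CPM in the control library (-0.49). Its value in the library labelled CKO lay at that of the median gene.

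Protein-coding transcripts that are retained in the nucleus or encode speckle proteins had a smaller difference. The 30 genes summed to 0.910% in mitochondria-rich and 1.03% in mitochondria-poor barcodes of the library labelled CKO (-0.18, -0.20 to -0.16) and to 0.970% and 1.20% in the control library (-0.31, -0.32 to -0.29). Below 0 were 24 and 26 of 27 measured genes. Against the median gene the sums were -0.080 and -0.054, so most of that difference was shared with genes at large. As a share of nuclear-encoded UMIs, not against the median gene, the value in the library labelled CKO was -0.36 for barcodes with at least 40% mitochondrial UMIs. For barcodes free of other lineages' markers (110 mitochondria-rich and 241 mitochondria-poor) it was -0.38. These were its lowest values among the alternatives, and with Malat1 and ribosomal RNA-like genes left out it was -0.12. The splicing factor genes Luc7l2 (-0.27 and -0.48) and Rbm5 (-0.31 and -0.54) were lowest by the mean of both libraries, and Pabpn1, a nuclear poly(A) binding protein, was the highest with at least 200 UMIs (0.31 and 0.34).

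**Figure D2:**
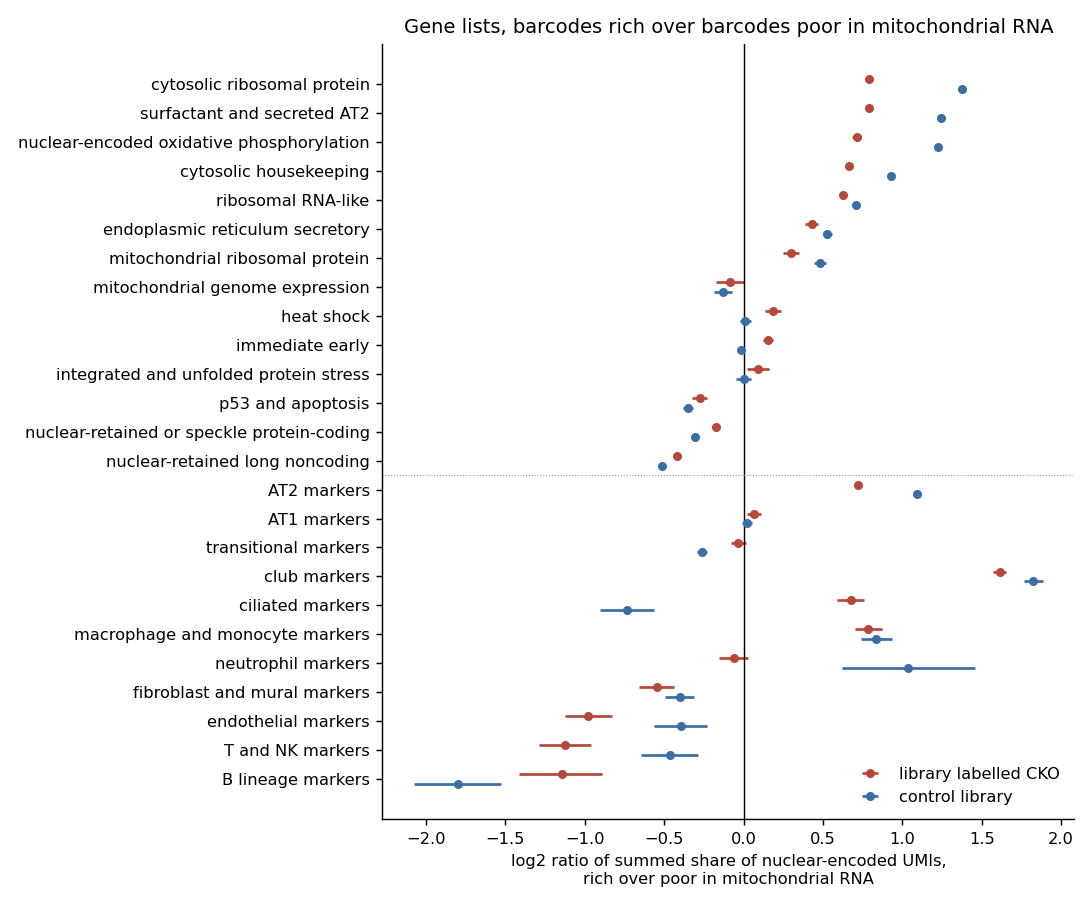
Log2 ratio of the summed share of nuclear-encoded UMIs, mitochondria-rich over mitochondria-poor, for 14 gene lists (above the dotted line) and 11 cell type marker lists (below it) in the library labelled CKO (red) and the control library (blue), with 95% counting intervals. Ribosomal protein RNA lies at 0.79 and 1.37 and nuclear long noncoding RNA at -0.42 and -0.51, and ciliated markers lie on opposite sides of 0.

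Ribosomal RNA-like loci moved with the mitochondrial share as well. Gm42418, where reads of ribosomal RNA are known to pile up, accounted for 11.0% of nuclear-encoded UMIs in mitochondria-rich and 6.92% in mitochondria-poor barcodes of the library labelled CKO (log2 ratio 0.67, 0.66 to 0.68). Its control shares were 21.4% and 12.6% (0.77, 0.76 to 0.77). AY036118, a locus of the same kind, followed (0.38 and 0.44), while Gm26870 did not (-0.31 and -0.64). Because Gm42418 sits in the denominator, leaving it, its relatives and Malat1 out raised the ribosomal protein ratio to 0.84 and 1.52.

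These differences were graded along the mitochondrial share. In the library labelled CKO, ribosomal protein RNA made up 1.43% of nuclear-encoded UMIs in barcodes with a mitochondrial share under 5%, 2.03% at 10 to 15%, 2.39% at 20 to 25%, 3.02% at 30 to 35%, 3.79% at 40 to 45% and 5.81% at 60% and over (55 barcodes). The same bins of the control library held 0.352%, 0.767%, 1.15%, 1.63%, 2.17% and 3.27% (110 barcodes in the last). Malat1 was 3.95%, 3.53%, 2.97%, 2.61%, 2.20% and 1.48% along these bins in the library labelled CKO, and 5.12%, 4.95%, 4.22%, 3.63%, 3.18% and 2.05% in the control library. Over all 13 bins the ribosomal protein order had no exception, while Malat1 had its highest control value at 5 to 10% (5.47%) and was at 2.22% at 55 to 60% in the library labelled CKO. Gm42418 was at 5.60% in the lowest and 18.8% in the highest bin of the library labelled CKO, and at 9.31% and 31.6% in the control library. Surfactant RNA levelled off in the library labelled CKO, with 2.50% at 40 to 45%, 2.46% at 50 to 55% and 2.81% at 60% and over, while the control library had 3.29%, 3.74% and 4.15% there. Median nuclear-encoded UMIs also changed along the axis, at 1629, 2654 and 644 in the bins under 5%, at 10 to 15% and at 60% and over of the library labelled CKO, and 1924, 2036.5 and 1038 in the control library, and their part in these shares was not tested.

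**Figure D3:**
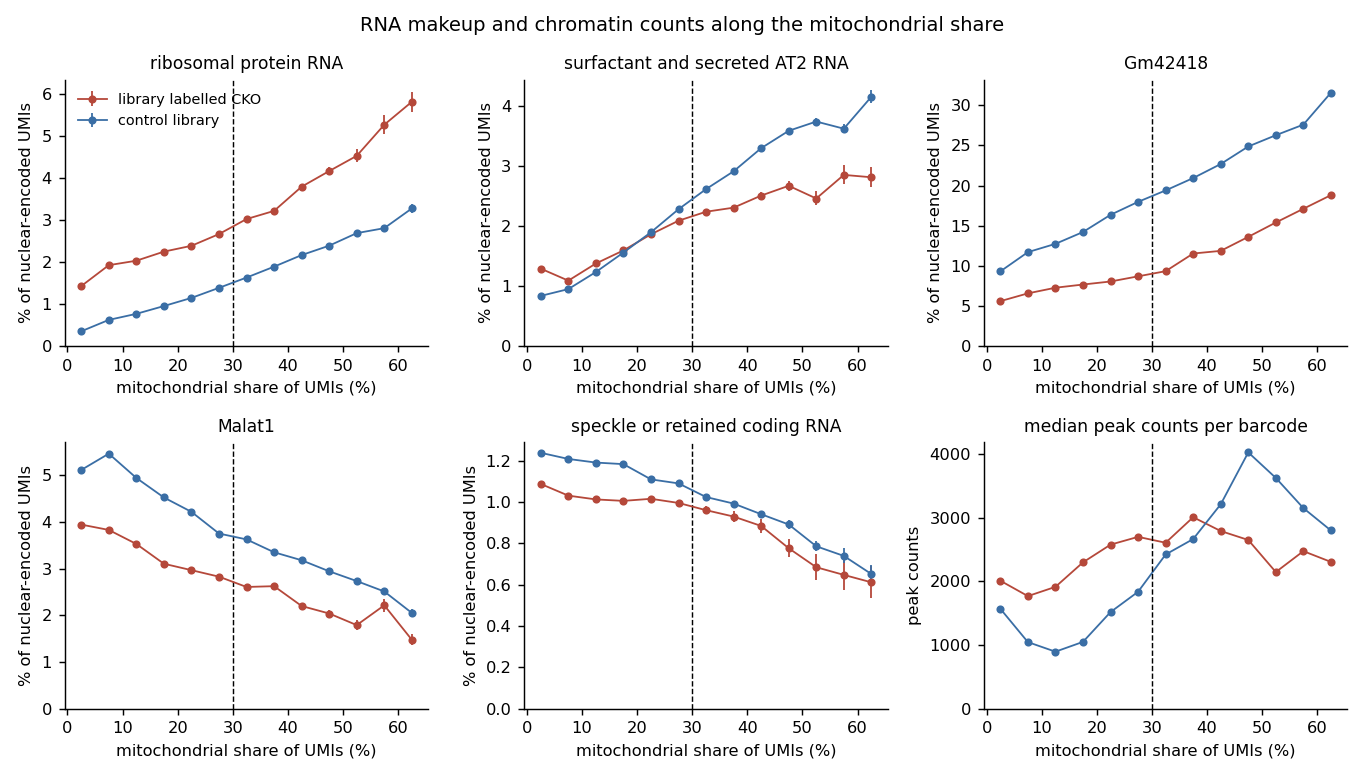
Summed share of nuclear-encoded UMIs in percent for ribosomal protein, surfactant and secreted AT2, Gm42418, Malat1 and speckle or retained coding RNA, and median peak counts per barcode, by bins of 5 percentage points of the mitochondrial share (last bin 60% and over), in the library labelled CKO (red) and the control library (blue), with 95% counting intervals where drawn and the 30% limit dashed. Ribosomal protein RNA reaches 5.81% and 3.27% in the last bin and Malat1 lies at 1.48% and 2.05% there.

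The span of a gene on the chromosome, which sets how much intronic RNA its nuclear transcripts hold, ordered the ratios of protein-coding genes. In the library labelled CKO the median log2 ratio was 0.67 for the 103 genes spanning up to 2000 bases, 0.28 for 855 genes of 5000 to 10000 bases, -0.10 for 2725 genes of 20000 to 50000 bases and -0.37 for the 689 genes over 200000 bases. The control medians were 1.16 (98 genes), 0.33 (708), -0.24 (2419) and -0.55 (598). Of the genes over 200000 bases, 12.6% had a ratio above 0 in the library labelled CKO and 3.01% in the control library. Spearman's correlation of span with the ratio was -0.56 over 9117 genes and -0.64 over 8029, across genes of the same libraries, which are not independent replicates. Leaving out every gene of the lists moved the medians of the shortest genes only to 0.62 and 1.04. Ribosomal protein genes stood above other genes of like span. Within the middle 50% of their spans, 39 of them had a median of 0.80 in the library labelled CKO and 1.37 in the control library, against 0.45 (269 genes in no list) and 0.67 (229 genes). For oxidative phosphorylation the medians were 0.81 and 1.33 (36 genes) against 0.25 (1062) and 0.28 (877), and for surfactant and secreted AT2 genes 0.94 and 1.57 (10 genes) against 0.12 (2596) and 0.057 (2141). The speckle or retained genes had -0.16 and -0.32 (13 genes) against -0.018 (2487) and -0.14 (2136). Whether intronic reads were counted is not given in the sources used here.

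**Figure D4:**
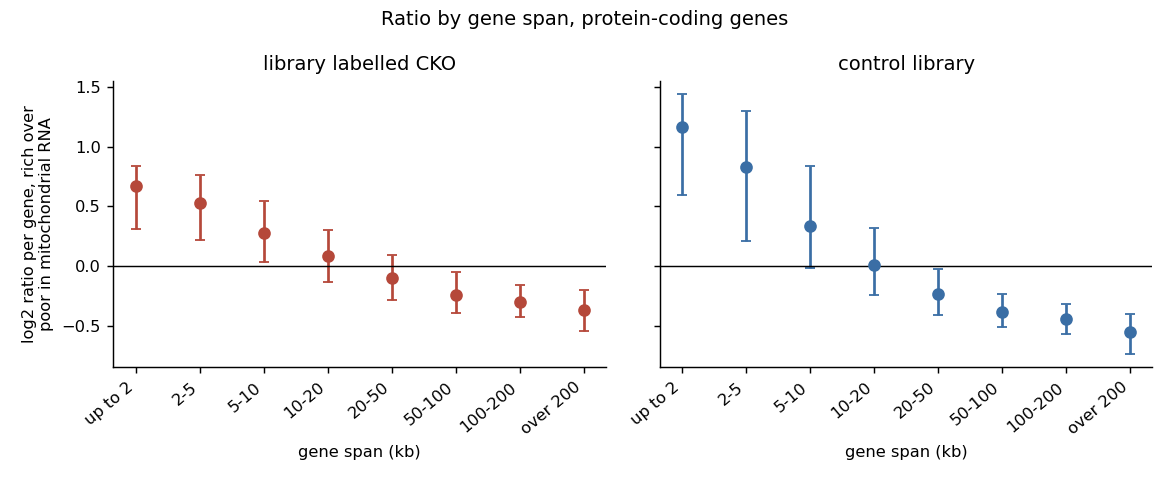
Log2 ratio per protein-coding gene, mitochondria-rich over mitochondria-poor, by gene span in kilobases, in the library labelled CKO and the control library, with points for medians over genes and bars from the first to the third quartile. The medians run downwards from 0.67 and 1.16 in the shortest genes to -0.37 and -0.55 in the longest.

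The 12 genes that stood highest in both libraries, ranked by the interval bound nearest 0, were led by a secretoglobin. Scgb3a1, made by airway secretory cells, was at 110 against 11.7 CPM in the library labelled CKO (log2 ratio 3.23, 2.96 to 3.51) and 48.7 against 4.77 CPM in the control library (3.35, 2.97 to 3.76). Single barcodes decided that value, since 135 of its 262 UMIs in mitochondria-rich barcodes of the library labelled CKO and 350 of 495 in the control library came from 1 barcode each. Scgb1a1, the secretoglobin of club cells, was more widely spread. It was at 2613 against 877 CPM (1.58) and 737 against 215 CPM (1.78), with a UMI in 68.6% of mitochondria-rich and 66.5% of mitochondria-poor barcodes of the library labelled CKO, and in 20.7% and 11.98% in the control library. As few as 4 mitochondria-rich barcodes of the control library held at least 50% of its 7486 UMIs, with up to 1480 in 1, and in the library labelled CKO 12 held at least 50% of 6210. The other genes of this group were Retnla (1.69 and 1.74), Mrc1 (1.47 and 1.90), a receptor of macrophages, Orm1 (1.41 and 1.85), Sfta2 (1.29 and 1.80), Lyz1, Lyz2, Itm2a (1.28 and 1.64), S100g (1.23 and 1.53), Chil1 (1.18 and 1.66) and Cxcl15 (1.08 and 1.58). Genes at least 2-fold higher numbered 95 and 477 in the library labelled CKO and the control library, and genes at least 2-fold lower 130 (1.37%) and 126 (1.50%). Set against the median gene these counts were 160 and 740 higher, and 96 and 59 lower. With a minimum of 50 UMIs per gene they were 257 and 704 higher, and 454 and 471 lower.

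The lowest genes in both libraries were long genes with low counts in mitochondria-rich barcodes, and those named here, except Sidt1 (93036 bases) and Abcb1b (68168 bases), spanned more than 200000 bases. Ebf1, a transcription factor of B cells and stromal cells, had 13.46 against 49.9 CPM in the library labelled CKO (-1.89, -2.45 to -1.38) and 2.56 against 22.0 CPM in the control library (-3.10, -3.74 to -2.52). Ano3, of the anoctamin family, had -2.28 and -1.72 (9 and 54 UMIs in mitochondria-rich barcodes) and the receptor phosphatase Ptprd -1.68 and -1.97. Others were Csmd1 (-1.62 and -2.59), Prex2 (-1.59 and -1.50), Sidt1 (-1.59 and -1.28), Ltbp1 (-1.44 and -1.32), the cGMP-dependent kinase Prkg1 (-1.37 and -1.67), Kcnb2 (-1.21 and -1.80), Sema3a (-1.16 and -1.65) and Abcb1b (-1.13 and -1.55). Over the 7855 named genes with at least 200 UMIs in both libraries, 3253 had intervals on the same side of 0 in both.

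Markers of cell types other than AT2 cells moved with the classes. AT2 markers summed to a log2 ratio of 0.72 (0.70 to 0.74) in the library labelled CKO and 1.09 (1.08 to 1.10) in the control library. AT1 markers, of the flat alveolar cells that AT2 cells give rise to, were near 0 (0.067 and 0.022), with Ager (0.60 and 1.35) and Clic5 (-0.41 and -0.96) on either side. Markers of the transitional state were at -0.033 and -0.26, and at 0.063 and -0.0093 against the median gene, with Krt18 at 0.33 and 0.30 and Itgb6 at -0.72 and -0.98. Club cell markers were at 1.61 and 1.83 and macrophage and monocyte markers at 0.79 and 0.84. Of the measured macrophage and monocyte genes 6 of 9 and 6 of 8 were above 0. Csf1r was at -0.15 and -0.16, with intervals that included 0, and Ccr2 at -0.72 (-1.23 to -0.24) in the library labelled CKO. Markers of T and NK cells (-1.12 and -0.47), of B cells (-1.15 and -1.80), of endothelium (-0.98 and -0.40) and of fibroblasts and mural cells (-0.55 and -0.40) had negative sums. Most UMIs of the fibroblast and mural list came from Npnt (-0.18 and -0.38). In the library labelled CKO it gave 595 of 721 UMIs in mitochondria-rich and 4695 of 7325 in mitochondria-poor barcodes. In the control library it gave 1503 of 1620 and 2545 of 2785. Neutrophil markers were at -0.061 in the library labelled CKO and 1.03 in the control library, where they rested on 126 UMIs in mitochondria-rich and 80 in mitochondria-poor barcodes. Dendritic markers were at -0.31 and -0.63, mesothelial markers at -0.20 and 0.52, and platelet and erythroid markers at 0.89 and -0.15, all at or under 0.00557% of UMIs in every class. Ciliated markers were at 0.67 (0.59 to 0.76) in the library labelled CKO and -0.73 (-0.90 to -0.56) in the control library. The part of these cell type makeups in the list values was not tested, nor was the part of gene span in the marker sums. In the B cell list Ebf1 (389997 bases, -1.89 and -3.10) and Bank1 (272779 bases, -1.23 and -2.28) were low. Cd79b (3222 bases) was at 0.94 and 1.10, from 16 and 51 UMIs in mitochondria-rich barcodes. Haemoglobin RNA, a sign of red cells, had 1 UMI in mitochondria-rich and 2 in mitochondria-poor barcodes of the library labelled CKO, and 1 and 0 in the control library.

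After thinning to 300 nuclear-encoded UMIs, an AT2 marker was found in 93.4% of mitochondria-rich and 81.5% of mitochondria-poor barcodes of the library labelled CKO, and in 95.8% and 83.3% in the control library (without thinning in all and 99.7%, and in 99.8% and 99.0%). A T or NK cell marker was found in 3.31% and 7.29%, and in 0.975% and 1.89% (without thinning 7.79% and 14.8%, and 3.48% and 4.96%). AT2 RNA was also counted in barcodes with markers of other lineages, which were not checked for RNA of more than 1 cell. Of barcodes with at least 3 UMIs of T and NK markers, 45 were mitochondria-rich and 470 mitochondria-poor in the library labelled CKO, and surfactant and secreted AT2 RNA made up 1.23% and 0.757% of their nuclear-encoded UMIs. The 40 and 77 such control barcodes held 1.90% and 1.11%. In this lymphoid group the share of AT2 RNA thus was higher in mitochondria-rich barcodes by a log2 ratio of 0.70 (0.60 to 0.80) and 0.78 (0.70 to 0.86). These lineage groups were chosen after the main values had been seen.

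The ribosomal protein and Malat1 differences were found in each lineage group compared that had at least 20 barcodes in each class. AT1, transitional and club cell groups were not compared. The compared groups took barcodes with at least 3 UMIs of a lineage's markers and could overlap. The AT2 group held 1418 of 1450 mitochondria-rich and 5624 of 5923 mitochondria-poor barcodes of the library labelled CKO. In the control library it held 3935 of 3998 and 3905 of 4173. Its overlap with the other groups was not counted, so these cannot be read as separate lineages that each repeat the result. Ribosomal protein RNA in barcodes with macrophage and monocyte markers was at 3.32% in mitochondria-rich and 2.08% in mitochondria-poor barcodes of the library labelled CKO (log2 ratio 0.67) and at 1.66% and 0.749% in the control library (1.15). In T and NK barcodes the ratio was 0.46 and 1.23, in endothelial barcodes 0.79 and 1.19, in fibroblast and mural barcodes 0.73 and 1.29, in ciliated barcodes 0.40 and 0.99, and in neutrophil barcodes of the library labelled CKO 0.48. Malat1 had a negative ratio in all of these, from -0.33 in endothelial to -0.95 in ciliated barcodes of the library labelled CKO and from -0.26 in ciliated to -0.79 in macrophage and monocyte barcodes of the control library. Among mitochondria-poor barcodes of the library labelled CKO, Malat1 made up 3.60% of nuclear-encoded UMIs in the AT2 group and 2.21% in the T and NK group. The whole mitochondria-poor class there was at 3.55%. The speckle or retained genes varied more between lineages. In the library labelled CKO they were at -0.24 in macrophage and monocyte barcodes and -0.12 (-0.20 to -0.051) in fibroblast and mural barcodes. There they were at -0.041 in neutrophil, 0.0081 in T and NK, 0.0043 in endothelial and 0.070 in ciliated barcodes, with intervals that included 0. In the control library they lay between -0.20 and -0.27 in these lineages apart from neutrophils, which had too few barcodes. Barcodes with 3 or more UMIs of 2 lineages were not removed, and doublets were not called here. The fibroblast and mural group was chosen mostly on Npnt, and whether it is a lineage apart from AT2 cells was not tested. Surfactant and secreted AT2 RNA made up 2.92% in its mitochondria-rich barcodes of the library labelled CKO, against 2.37% in AT2 barcodes. The control values were 2.83% and 2.99%.

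**Figure D5:**
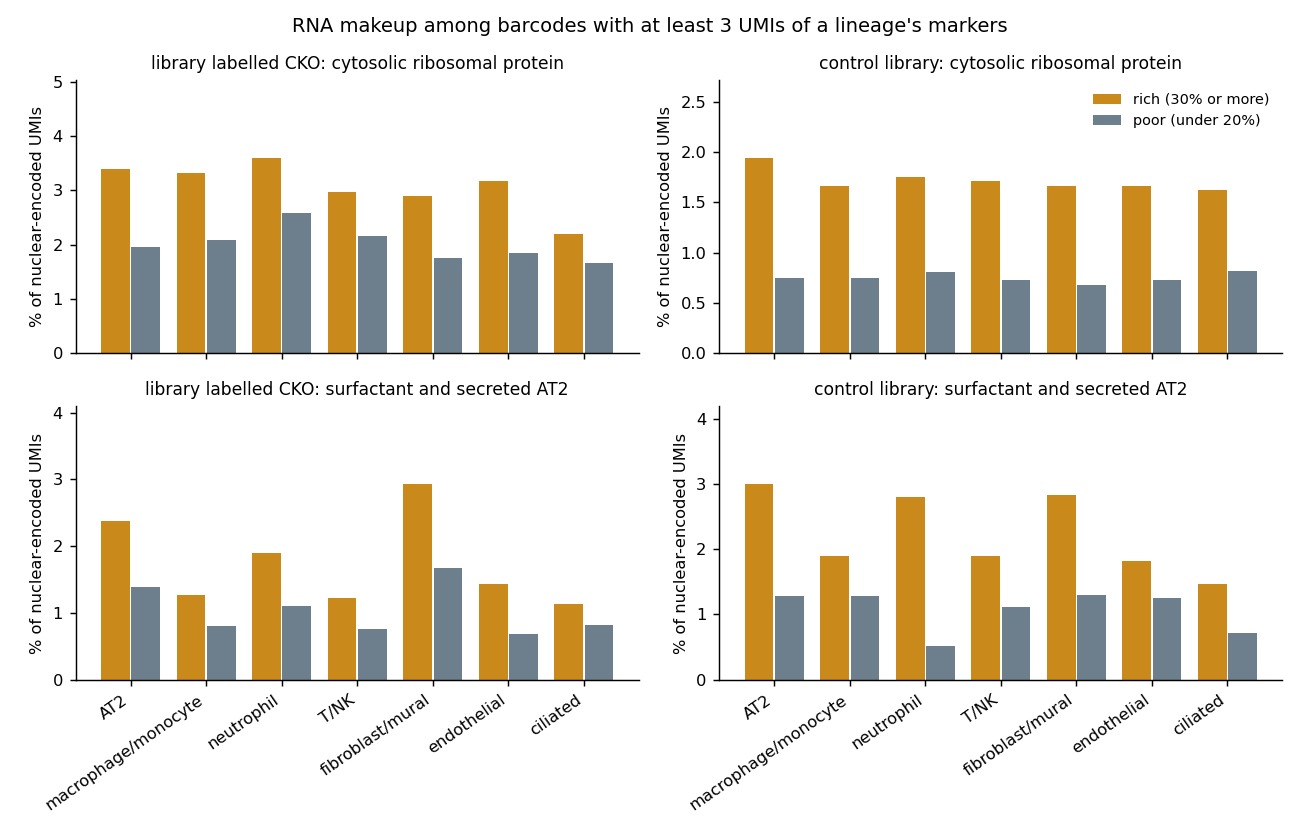
Share of nuclear-encoded UMIs in percent taken by ribosomal protein RNA (top) and by surfactant and secreted AT2 RNA (bottom) in mitochondria-rich and mitochondria-poor barcodes with at least 3 UMIs of a lineage's markers, in the library labelled CKO (left) and the control library (right). The mitochondria-rich bar is the higher of each pair, as in T and NK barcodes with 1.23% against 0.757% surfactant RNA in the library labelled CKO, and the control neutrophil bars rest on 10 and 4 barcodes.

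Stress and damage lists differed in direction. Transcripts of the p53 and apoptosis list summed to -0.28 (-0.32 to -0.23) in the library labelled CKO and -0.35 (-0.38 to -0.32) in the control library, and to -0.18 and -0.097 against the median gene. Above 0 were 6 of 21 and 4 of 19 measured genes, where 40.2% and 29.7% of all genes were above 0. The receptor gene Eda2r (-0.76 and -1.52) and the apoptosome gene Apaf1 (-0.58 and -0.60) were lowest, and the pore-forming Bak1 (0.71 and 0.89) and Bax (0.29 and 0.53) highest. Trp53 itself had 51 and 142 UMIs in mitochondria-rich barcodes and ratios of -0.16 (-0.61 to 0.26) and -0.63 (-0.93 to -0.33). Heat shock RNA was at 0.19 (0.13 to 0.24) and 0.010 (-0.025 to 0.045), and at 0.28 and 0.26 against the median gene, led by the chaperonin gene Hspe1 (0.48 and 1.07), with the inducible Hspa1b (-0.46 and -0.80) at the low end. Genes of the integrated and unfolded protein stress responses were at 0.090 (0.020 to 0.16) and 0.00087 (-0.044 to 0.046), and at 0.19 and 0.25 against the median gene. Immediate early genes, which tissue handling can induce, were at 0.15 (0.12 to 0.18) and -0.018 (-0.032 to -0.0035), and at 0.25 and 0.23 against the median gene. Compared with unlisted genes of like span, 9 immediate early genes had medians of 0.22 and -0.047, against 0.33 and 0.43. Stress response genes (6 and 5) had 0.21 and -0.063, against 0.16 and 0.37. Heat shock genes (7 in each library) had 0.29 and -0.047, against 0.14 and 0.075. Jun, which encodes an AP-1 subunit, was at 383 against 330 CPM in the library labelled CKO (0.22) and 623 against 776 CPM in the control library (-0.32).

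Chromatin counts, which the rule did not use, were higher in mitochondria-rich barcodes. In the library labelled CKO their median was 2683.5 peak counts (quartiles 867 and 6132) against 2009 (627.5 and 4663), a log2 ratio of 0.42 (0.22 to 0.60). The control median was 2879 (1003.5 and 7131.5) against 1095 (384 and 2879), a ratio of 1.39 (1.21 to 1.57). Each bound of these ratios divides opposite ends of the classes' 95% intervals of the median over barcodes, so it reflects the spread between barcodes. The distributions overlapped widely. Fewer than 1000 peak counts were found in 27.4% (25.2 to 29.8) against 34.4% (33.2 to 35.7) of barcodes in the library labelled CKO and in 24.96% (23.6 to 26.3) against 47.6% (46.1 to 49.2) in the control library. Along the mitochondrial share the control medians were 1571 under 5%, 897 at 10 to 15%, 1519 at 20 to 25%, 2423.5 at 30 to 35%, 4027 at 45 to 50% and 2800.5 at 60% and over. The library labelled CKO had 2011.5, 1915, 2578, 2608, 2651.5 and 2307 in these bins. Among barcodes with 500 to 2000 nuclear-encoded UMIs in both classes the log2 ratio was 0.19 (-0.0073 to 0.45) in the library labelled CKO and 0.81 (0.65 to 1.03) in the control library. Among barcodes with at least 1000 peak counts it was 0.28 and 0.71, but that limit cuts the compared value itself in both classes. For the 110 mitochondria-rich barcodes of the library labelled CKO without a UMI of other lineages, the log2 ratio was 0.16 (-0.46 to 1.13).

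The makeup of the peak counts differed far less than that of the RNA. Peaks within 1000 bases of a gene start took 38.4% of peak counts in mitochondria-rich and 40.9% in mitochondria-poor barcodes of the library labelled CKO, and 42.4% and 43.8% in the control library. Peaks within 10000 bases of ribosomal protein gene starts had log2 ratios of -0.12 (-0.14 to -0.095) and -0.049 (-0.066 to -0.032), and those near surfactant and secreted AT2 genes 0.071 (0.018 to 0.12) and -0.057 (-0.097 to -0.017). The RNA ratios of these lists were 0.79 and 1.37, and 0.79 and 1.24. Near AT2 markers the ratios were 0.055 (-0.0038 to 0.11) and -0.047 (-0.090 to -0.0037), and near T and NK markers -0.53 (-0.68 to -0.38) and -0.042 (-0.17 to 0.085). Near club cell markers they were 0.43 (0.11 to 0.73, from 125 and 292 counts) and 0.51 (0.23 to 0.80, from 390 and 143 counts). For other lists peak and RNA ratios had opposite signs in both libraries. Near macrophage and monocyte markers the peak ratios were -0.14 (-0.22 to -0.060) and -0.13 (-0.20 to -0.059), against 0.79 and 0.84 for RNA. Near fibroblast and mural markers they were 0.18 (0.034 to 0.33) and 0.17 (0.068 to 0.27), against -0.55 and -0.40. The remaining marker lists are not given here.

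Each library had 2 peaks on the mitochondrial genome (MT), whose DNA carries no nucleosomes. Almost all counts fell in 1 of them, at positions 10966 to 11678 in the library labelled CKO and 10919 to 11677 in the control library, over the end of mt-Nd4 (10167 to 11544 in RefSeq) and the 3 tRNA genes that follow it. In the library labelled CKO mitochondrial DNA took 0.0512% of peak counts in mitochondria-rich and 0.0370% in mitochondria-poor barcodes, a log2 ratio of 0.47 (0.41 to 0.53). In the control library it took 0.370% and 0.378% (-0.031, -0.048 to -0.014). A count was found in 49.03% of mitochondria-rich and 31.0% of mitochondria-poor barcodes of the library labelled CKO, and in 93.3% and 75.8% in the control library. Mitochondria-rich barcodes also had more peak counts in all, and these detection shares were not set to equal depth. Along the mitochondrial share of RNA, mitochondrial DNA took 0.0136% of peak counts under 5%, 0.0317% at 5 to 10%, 0.0483% at 15 to 20%, 0.0460% at 45 to 50% and 0.0557% at 60% and over in the library labelled CKO. The control library had 0.0692%, 0.449%, 0.569%, 0.297% and 0.408% in these bins, with its lowest value in the first of all 13 bins and its highest at 15 to 20%. In both classes the share was lower in the library labelled CKO than in the control library. Which mitochondrial fragments were kept before peaks were called is not given in the sources used here.

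Between the genotypes, mitochondria-rich barcodes of the library labelled CKO held more ribosomal protein RNA (3.39% against 1.94% in the control library, log2 ratio 0.80, 0.79 to 0.81) and less Gm42418 (11.0% against 21.4%, -0.96, -0.97 to -0.96). The same directions were found in mitochondria-poor barcodes (1.39 and -0.86). Surfactant and secreted AT2 RNA was lower in mitochondria-rich barcodes of the library labelled CKO than in those of the control library (2.35% against 2.97%, -0.34, -0.35 to -0.33) and slightly higher in mitochondria-poor ones (1.36% against 1.26%, 0.11, 0.10 to 0.12). Jun was lower in mitochondria-rich barcodes of the library labelled CKO (383 against 623 CPM, -0.70, -0.80 to -0.60) and in mitochondria-poor ones (-1.24). Markers of club cells (1.82), ciliated cells (3.87), neutrophils (5.19), macrophages and monocytes (1.59) and T and NK cells (1.83) were all higher in mitochondria-rich barcodes of the library labelled CKO, and the part of this makeup in the other differences was not tested. With 1 library per genotype, the genotype and the preparation of each library cannot be told apart.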

How the data were processed

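The deposited values of both libraries are raw counts with no normalisation, namely UMIs of 31053 genes and transposition events in 125793 (CKO) or 116075 (control) peaks. Cell Ranger ARC 2.0.1 wrote them, per the file headers. The submitters' processing notes also list Signac 1.6.0, Seurat 4.1.0, GRCm39 and GRCm38, without saying what each was used for. How barcodes were called as cells, and whether intronic reads were counted, is not given in the sources used here. The library labelled CKO held 30818808 UMIs and 37365247 peak counts, the control library 48378328 and 47307986.

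Members, gene lists and marker lists were chosen with earlier results of these data known. UMIs were summed over a class and divided by that class's nuclear-encoded total. Intervals are exact: conditional binomial for ratios of UMIs or counts, Clopper-Pearson for shares and Poisson for single counts, with a floor of 3 counts. For ratios of median peak counts, opposite ends of both medians' order-statistic intervals were divided. Since UMIs of 1 barcode are not replicates, no test was run. Duplicate symbols were reduced to the feature with most UMIs. Genes counted towards a fold had at least 200 UMIs over both classes. Gene spans and starts came from RefSeq GRCm38.p6, where 92.4% of 10255 gene starts in the files lay within 1000 bases of the same symbol's start. Named genes were all mitochondrial genes, the 12 highest and 12 lowest other genes in both libraries by the interval bound nearest 0 (unnamed gene models left out), the 2 highest and 2 lowest members, by the mean of both libraries' ratios, of each of 15 gene lists and 14 marker lists (not all printed, and some not reported here), and Malat1, Neat1, Gm42418, Sftpc, Sftpb, Ptgir, Jun and Trp53. The calculation was tested on simulated counts. Alternatives numbered 10, with 2 more added after seeing these values. Calculations ran in pandas 2.3.3, scipy 1.17.1 and numpy 2.4.6 under Python 3.11.15, and figures in matplotlib 3.10.9.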

Additional observations from a re-analysis of the deposited data

Results flagged for a closer look

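Several values had opposite signs in the libraries or classes, and none of these differences was tested, since each genotype is 1 library. Immediate early RNA had a log2 ratio, mitochondria-rich over mitochondria-poor, of 0.15 in the library labelled CKO and -0.018 in the control library. Against the median gene both were above 0 (0.25 and 0.23). Medians over 9 of these genes were below those of unlisted genes of like span (0.22 against 0.33, and -0.047 against 0.43). Ciliated cell markers were at 0.67 in the library labelled CKO and -0.73 in the control library, where they rested on 413 UMIs in mitochondria-rich and 892 in mitochondria-poor barcodes, against 1418 and 6177 in the library labelled CKO. Surfactant and secreted AT2 RNA, as a log2 ratio of the library labelled CKO over the control library, was at -0.34 in mitochondria-rich and 0.11 in mitochondria-poor barcodes. AT2 markers, which share genes with that list, were at -0.25 and 0.12. Sftpb, a member of both, was at -0.13 and 0.33.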

How the results depend on the processing

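Of 140 recomputed values, 41 stayed within the interval or 1.5 times the count, 98 moved beyond it and 1 changed direction. Values are given for the library labelled CKO and then the control library, as log2 ratios in the order ribosomal protein, surfactant, oxidative phosphorylation, long noncoding and speckle or retained RNA unless named. With members at 40% or more they were 1.10 and 1.67, 0.93 and 1.48, 0.96 and 1.51, -0.61 and -0.67, and -0.36 and -0.45, with control peak counts at 1.64, 373 genes 2-fold higher in the library labelled CKO, and 496 and 414 lower. With mitochondria-poor barcodes under 10% they were 0.99 and 2.04, 1.00 and 1.75, 0.90 and 1.64, -0.53 and -0.63, and -0.21 and -0.34, with control peak counts at 1.17, 214 genes higher in the library labelled CKO and 221 lower in the control library. At 1000 to 5000 UMIs they were 0.86 and 1.53, 0.76 and 1.48, 0.75 and 1.30, -0.41 and -0.55, and -0.26 and -0.33, with control peak counts at 0.98 and class shares of 11.4% and 20.9%. At 1000 or more peak counts ribosomal protein RNA was at 0.83 and 1.28, surfactant RNA 0.82 and 1.28, and long noncoding RNA -0.39 and -0.53. In the control library alone, oxidative phosphorylation was at 1.15, speckle or retained RNA -0.26 and peak counts 0.71. The class shares were 14.2% and 35.8%. That limit is set on peak counts, so it also acts on the peak count ratio directly. With each barcode weighing the same, ribosomal protein RNA was at 0.84 and 1.42, oxidative phosphorylation 0.76 and 1.26, speckle or retained RNA -0.26 and -0.28, control surfactant RNA 1.34, and long noncoding RNA of the library labelled CKO -0.36. Without Malat1 and ribosomal RNA-like genes they were 0.84 and 1.52, 0.84 and 1.39, 0.76 and 1.37, 0.050 and -0.15, and -0.12 and -0.16. With Malat1 left out of the long noncoding list alone, an alternative chosen after seeing the data, that list was at -0.0012 and -0.30. Under median-of-ratios scaling they were 0.88 and 1.63, 0.89 and 1.50, 0.81 and 1.47, -0.33 and -0.26, and -0.080 and -0.054, with 160 and 740 genes higher and 59 lower in the control library. In barcodes with no UMI of other lineages ribosomal protein RNA was at 0.95 and 1.44, surfactant RNA 0.83 and 1.37, control oxidative phosphorylation 1.30, long noncoding RNA -0.45 and -0.50, speckle or retained RNA -0.38 and -0.33, and peak counts of the library labelled CKO 0.16. At 50 or more UMIs per gene, the library labelled CKO had 257 higher genes, and lower genes numbered 454 and 471. At 500 to 2000 nuclear-encoded UMIs peak counts were at 0.19 and 0.81. The cause of these moves was not tested. Leaving out barcode strings found in both libraries, also chosen after seeing the data, moved none of these values past its interval. No paired analysis was possible because each genotype is 1 library and no result comes from a test, and for the same reason no replicate could be left out. Depth limits Ptgir, which had no UMI in mitochondria-rich barcodes, and the marker lists of rare cells.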
